A study of Mus musculus with 12 samples.

Results

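The subject is the m6A peaks that lie in long non-coding RNA (lncRNA) genes of mouse induced neural stem cell-like cells (iNSCs) and of the spermatogonial stem cells (SSCs) they were made from. A listed peak was counted as an lncRNA peak when it overlapped no protein-coding gene span of the RefSeq GRCm38.p6 gene table, on either strand, and overlapped at least 1 gene of lncRNA biotype by 1 base or more. By that rule 277 of 118075 listed peaks (0.235%) were lncRNA peaks. Merged across the lists by 1 base on the same strand, they formed 153 regions in 126 lncRNA genes.

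Long non-coding RNAs are transcripts that are not known to be translated; many are spliced and polyadenylated like messenger RNA, and some act in the nucleus on chromatin or on neighbouring genes. N6-methyladenosine (m6A) is a methyl mark that a METTL3-containing enzyme complex writes on messenger RNAs and lncRNAs, mostly at adenosines that follow a pair of guanines and precede a cytosine. In human cells the lncRNAs MALAT1 and XIST are well-known carriers of the mark.

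The tested cells were iNSCs, made from cultured SSCs on laminin by 1 µM retinoic acid for 24 h and then by a neural medium with the TGF-beta receptor inhibitor SB431542 and basic fibroblast growth factor. They were set against SSCs, testis germline stem cells grown on inactivated STO embryonic fibroblast feeders with LIF, EGF, bFGF and GDNF. No strain, genotype or age is given in the sources used here, and no sorting of the cells from the feeders beyond differential plating is described. Poly(A) RNA was broken into fragments of about 200 nt, pulled down with an m6A antibody and sequenced with a strand-keeping kit. Of 12 samples in the labels, the 6 immunoprecipitates (3 iNSC and 3 SSC libraries) had a peak list each, while the 6 inputs were left out (not analysed here).

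The iNSC lists held 13913, 16002 and 16060 peaks, and the SSC lists 27597, 19728 and 24775 peaks. The lists hold no read counts, so the depth behind a peak is unknown, and a missing peak does not show that a transcript was unmethylated or not expressed. For every sample the labelled cell type is the reverse of that in the title and source name, and the titles were followed. Under the titles the germ cell gene Ddx4 had 0, 0 and 0 peaks in iNSC lists and 5, 5 and 3 in SSC lists, and the neural stem cell gene Pax6 had 3, 4 and 4 in iNSC lists and 0, 0 and 1 in SSC lists. Sox2, a further neural stem cell marker, had 0 peaks in each iNSC list and 1 in each SSC list. Nes, another, did not separate the types, at 1, 1 and 2 peaks in iNSC lists and 1, 1 and 1 in SSC lists. Among the other germ cell markers, Zbtb16 and Stra8 had peaks in every SSC list and in no iNSC list. Dazl had 1 peak, in SSC replicate 1 alone. Sycp3 had 1, 1 and 1 peaks in iNSC lists and 6, 6 and 5 in SSC lists. The collagen genes Col1a1, Col1a2 and Col3a1, markers of the feeder fibroblasts, each had at most 2 peaks in any list. Col3a1 had 1, 0 and 0 peaks in iNSC lists and 2, 2 and 2 in SSC lists, without overlap, and the part of feeder RNA in the results was not tested.

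A promoter window ran from 250 bases before the RefSeq start to 50 bases after it. Of the 153 regions, 10 reached such a window of their lncRNA on the gene's strand. Only the 96 regions on their lncRNA's own strand could be counted. The others lay on the opposite strand or in a lncRNA of unknown strand. The pair of windows below is shown because it belongs to lncRNAs on which the results turn and because both regions began at the annotated first base. Capitals mark the bases inside the merged region, the sequences are from RefSeq (GRCm38.p6), and both run on the plus strand. The first is chr6:89095860-89096159, reached by a peak of SSC replicate 1 from the first base of the gene and by one of SSC replicate 2 from base 89096152, and the second is chr11:88718393-88718692, reached by a peak of all 3 iNSC lists and of SSC replicate 1.
4933427D06Rik: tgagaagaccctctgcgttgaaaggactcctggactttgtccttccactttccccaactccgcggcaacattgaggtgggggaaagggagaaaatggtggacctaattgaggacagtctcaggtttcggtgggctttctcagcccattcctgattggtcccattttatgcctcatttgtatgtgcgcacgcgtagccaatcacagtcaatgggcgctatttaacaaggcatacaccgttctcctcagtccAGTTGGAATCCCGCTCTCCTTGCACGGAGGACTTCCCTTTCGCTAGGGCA
C030037D09Rik: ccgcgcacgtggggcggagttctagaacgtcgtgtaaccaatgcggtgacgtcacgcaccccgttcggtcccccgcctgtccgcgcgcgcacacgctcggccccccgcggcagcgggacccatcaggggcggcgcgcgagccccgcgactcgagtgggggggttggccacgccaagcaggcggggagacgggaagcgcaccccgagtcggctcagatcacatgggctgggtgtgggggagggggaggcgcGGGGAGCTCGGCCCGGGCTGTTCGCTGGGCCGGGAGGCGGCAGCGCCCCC

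In the 4933427D06Rik window the letters GGAC stood 5 times on the gene's strand, 1 of them in the part inside the region. In the C030037D09Rik window GGAC stood once, before the region. GGAC was present on the gene's strand in 65.6% of all 32851 promoter windows and in 61.3% of the 11588 windows of lncRNA genes. It was in 70.6% of the 119 windows of lncRNA genes with a peak and in 8 of the 10 windows that a region reached (80.0%). These shares are of whole windows: GGAC stood inside the region only in the 4933427D06Rik window. GGACT, a longer form that contains it, was in 26.1% of all windows and in 4 of those 10. TATAAA, searched on both strands, was in 13.6% of all windows and in 0 of the 10. The letters inside the other regions were not read, since no genome was used.

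One region covered a microRNA hairpin: the H19 peak of SSC replicate 3 spanned Mir675, at chr7:142577064-142577147 on the minus strand. H19 is the imprinted, maternally expressed RNA from which miR-675 is processed. The RefSeq hairpin and its mature arms are given 5′ to 3′, with the seed, bases 2 to 8, of each arm in capitals.
Mir675 hairpin: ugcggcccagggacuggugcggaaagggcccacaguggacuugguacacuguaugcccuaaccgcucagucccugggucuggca
miR-675-5p: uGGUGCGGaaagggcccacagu
miR-675-3p: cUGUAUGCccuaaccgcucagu

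The question put to the lists was whether the lncRNAs with a listed peak differ between iNSCs and SSCs. The iNSC lists held 22, 28 and 33 lncRNA peaks, against 75, 49 and 70 in the SSC lists, so the groups did not overlap. The mean was 27.7 ± 5.51 in iNSCs and 64.7 ± 13.8 in SSCs (SD, n = 3 each), a difference of −37.0 peaks. The number of lncRNA genes with a peak was 23, 26 and 31 in iNSC lists and 67, 40 and 61 in SSC lists, with means of 26.7 ± 4.04 in iNSCs and 56.0 ± 14.2 in SSCs (SD, n = 3 each), a difference of −29.3 genes. Both differences had p = 0.10 by an exact two-sided permutation test, the smallest p that 3 libraries against 3 allow, and 0.10 after adjustment over 5 measures, so neither could pass 0.05.

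The longer SSC lists moved with this result. As a share of its own list, the lncRNA peaks made up 0.158%, 0.175% and 0.205% in iNSCs and 0.272%, 0.248% and 0.283% in SSCs, again without overlap. The means were 0.180% ± 0.0240 in iNSCs and 0.268% ± 0.0175 in SSCs (SD, n = 3 each), and the exact permutation test gave p = 0.10 and an adjusted p of 0.10. When every list was cut by score to the length of the shortest, 13913 peaks, the difference fell to −4.33 peaks and to −1.0 genes, with exact permutation p-values of 0.20 and 0.80. The share then differed by −0.0311 percentage points, with an exact permutation p of 0.20. At equal length most of the difference in counts was therefore gone. In the upper 50% of each list by score it was −9.00 peaks, −5.00 genes and −0.0168 percentage points of the list, with exact permutation p-values of 0.10, 0.40 and 0.40.

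**Figure D1:**
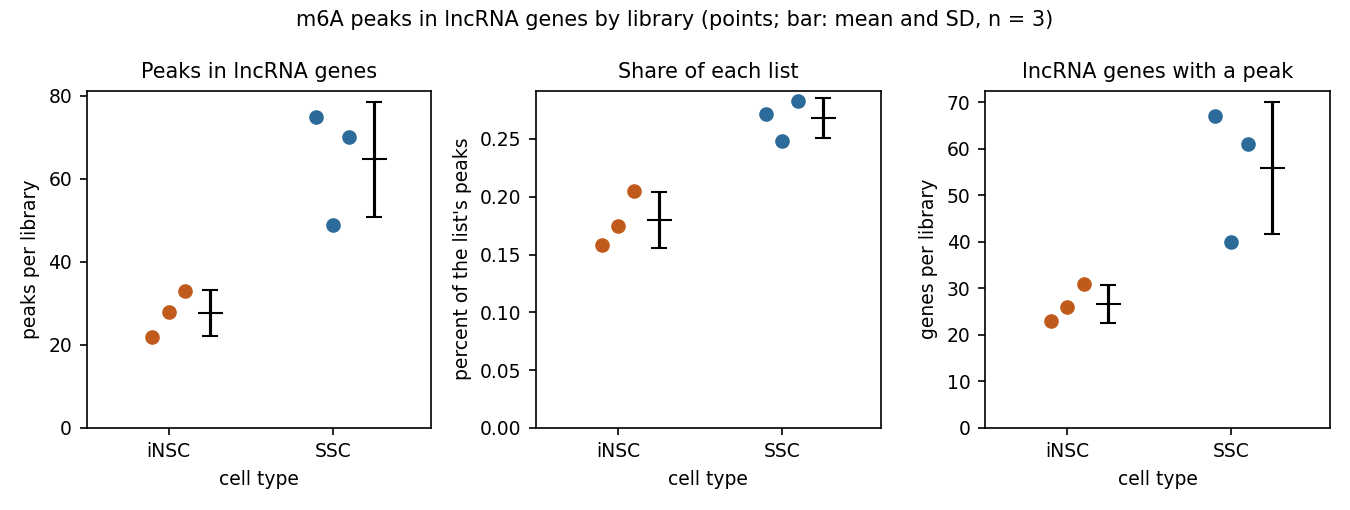
Peaks in lncRNA genes per library, their share of the list's peaks in percent, and lncRNA genes with a peak; points are libraries, the black mark and whiskers the mean and SD of 3. In each panel the 3 iNSC libraries lie below the 3 SSC libraries, at 22 to 33 against 49 to 75 peaks.

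Peaks in lncRNA genes were wider in iNSC lists. Their median width was 801, 588 and 590 bases in iNSC lists and 264, 384 and 297 bases in SSC lists. The group means of those medians were 660 ± 122 bases in iNSCs and 315 ± 62.0 bases in SSCs (SD, n = 3 each), with exact permutation p = 0.10 and adjusted p = 0.10. Peaks in protein-coding genes differed in the same direction, at 398 ± 33.3 bases in iNSCs and 198 ± 6.43 bases in SSCs (SD, n = 3 each), so a greater width in iNSC lists was seen in both classes of gene. The lncRNA difference of 345 bases grew to 764 in the upper 50% of each list by score and to 606 with peaks on the lncRNA's own strand alone.

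Peaks at the ceiling of the deposited score were also a larger share of the lncRNA peaks of iNSCs. The score that the authors deposited for each peak has no stated unit and reaches a ceiling, counted here as 3100 or more. At that ceiling were 3, 2 and 5 lncRNA peaks in iNSC lists and 1 in each SSC list. These were 13.6%, 7.14% and 15.2% of the lncRNA peaks in iNSCs and 1.33%, 2.04% and 1.43% in SSCs, a difference of group means of 10.4 percentage points with exact permutation p = 0.10 and adjusted p = 0.10. It was 22.8 points in the upper 50% of each list by score and 5.64 points where only a coding gene on the peak's strand barred a peak. For protein-coding genes the share differed in the same direction, at 16.2% ± 1.36 in iNSCs and 5.25% ± 2.02 in SSCs (SD, n = 3 each). In each list the lncRNA share was below the coding share. Scores of different lists are not on 1 scale, so the larger iNSC share does not show stronger methylation.

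Within a list, lncRNA peaks were wider than peaks in protein-coding genes and ranked lower by score. Their median was wider by 369, 193 and 224 bases in the iNSC lists and by 73.0, 181 and 96.0 bases in the SSC lists. It was wider in 6 of 6 lists, by 189 bases on average (328 with peaks on the lncRNA's own strand alone), with an exact two-sided sign-flip permutation p of 0.031, the smallest that 6 libraries allow, and 0.031 adjusted over 2 tests. Scores were compared as percentiles, the share of a list's peaks that score at or below the peak. Peaks tied at the ceiling thus all stand near percentile 100 of their list. The ceiling held 14.9% to 17.7% of the coding peaks in iNSC lists and 3.71% to 7.54% in SSC lists. The median lncRNA peak stood at percentile 48.7, 46.1 and 37.4 in iNSC lists and 40.4, 35.6 and 36.6 in SSC lists, while the median coding peak stood at about the middle of every list. It was lower in 6 of 6 lists, with a mean difference of −9.24 percentile points, an exact sign-flip permutation p of 0.031 and an adjusted p of 0.031. This score contrast missed 0.05 when only peaks known to be on the lncRNA's own strand were kept, at −7.32 points with an exact permutation p of 0.094. It also missed 0.05 without peaks over pseudogenes, at −8.67 points with an exact permutation p of 0.062. In the upper 50% of each list by score it was −3.36 points, with an exact permutation p of 0.031.

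**Figure D2:**
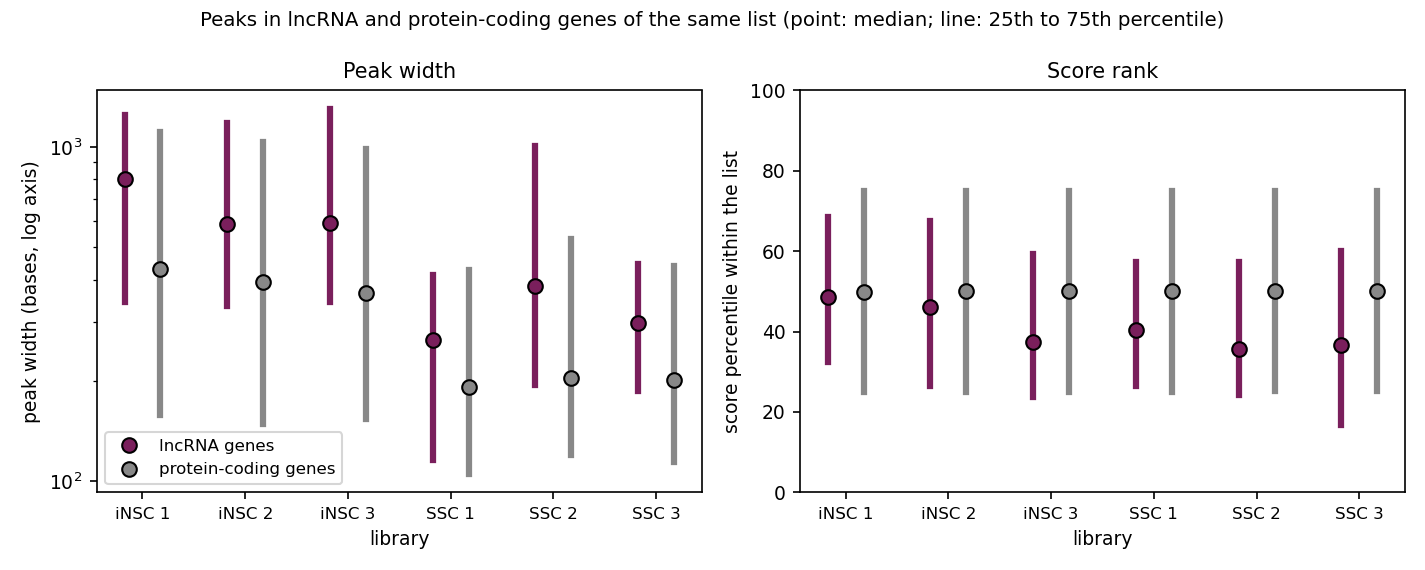
Peak width in bases (left, log axis) and score percentile within the list (right) for peaks in lncRNA genes and in protein-coding genes of the same library; points are medians and lines run from the 25th to the 75th percentile. The lncRNA median is the wider one in 6 of 6 libraries and the lower-ranked one in 6 of 6.

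Few lncRNA genes were held by every list. Of the 126, 70 (55.6%) had a peak in 1 list alone and 4 (3.17%) in all 6, against 18.8% and 30.6% of the 13753 protein-coding genes with a peak. The number of peaks per gene was not matched: the coding genes held 116781 peaks and the lncRNA genes 277. By region the gap was smaller. Of the 153 lncRNA regions 64.1% were in 1 list and 1.96% in all 6, against 46.5% and 10.1% of all 48292 merged regions of the series. The genes held by 1 list alone came to 0, 0 and 5 for the iNSC lists and 30, 10 and 25 for the SSC lists. The iNSC lists shared 67.7% to 95.7% of a list's lncRNA genes with one another, and the SSC lists 31.3% to 52.5%. For protein-coding genes those ranges were 86.7% to 93.7% within iNSCs and 69.9% to 85.6% within SSCs. Of the 126 genes, 12 were in iNSC lists alone, 91 in SSC lists alone and 23 in lists of both. The SSC lists were also longer, at a mean of 24033 peaks against 15325 in iNSCs. This split was not set beside that of protein-coding genes, so it is not shown to be particular to lncRNAs.

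A gene was called iNSC-only when all 3 iNSC lists and no SSC list held a peak in it, and SSC-only in the opposite case. Called iNSC-only were 3 of 126 lncRNA genes (2.38%), beside 2.44% of protein-coding genes with a peak. Called SSC-only were 8 of 126 (6.35%), beside 10.9% of protein-coding genes. Among the 153 regions, 3 were iNSC-only (1.96%) and 6 SSC-only (3.92%), beside 3.42% and 5.59% of all 48292 merged regions of the series. The shares of lncRNA genes and regions thus lay near or below the background in both directions, and the calls are a description of named transcripts. The balance of the calls moved with the score cut. At equal length 7 genes were iNSC-only and 5 SSC-only, and in the upper 50% of each list by score 5 were iNSC-only and 4 SSC-only. Both iNSC-only sets count A930004D18Rik, Gm17762 and Gm33085, which overlap and were called on the same peak. By region the counts were 5 iNSC-only and 4 SSC-only at equal length, and 3 and 3 in the upper 50%.

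**Figure D3:**
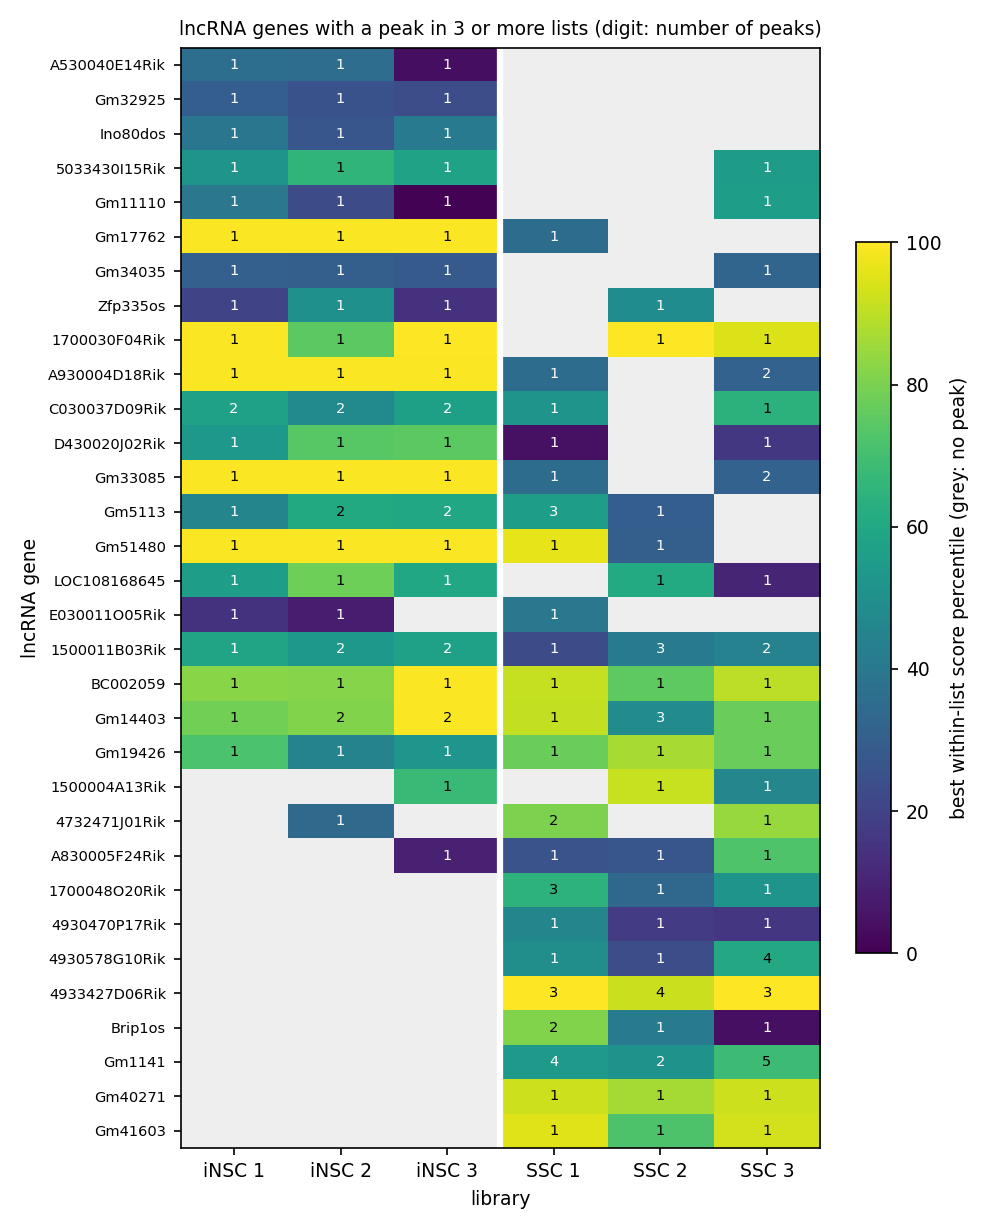
Best score percentile within each list for the 32 lncRNA genes with a peak in 3 or more lists (colour scale 0 to 100, grey for no peak, digits for the number of peaks); columns are the 3 iNSC and then the 3 SSC libraries. From top to bottom the order runs from genes in more iNSC than SSC lists, 17 in all, through 4 held equally, to 11 in more SSC lists.

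Ino80dos, named for lying opposite Ino80d, which encodes a subunit of the INO80 chromatin remodelling complex, was iNSC-only. Its gene spans chr1:63114471-63158295 on the plus strand, and its 1 region, chr1:63114361-63114667, lay on the minus strand, 94 bases from the Ino80d span. The peak was 307 bases wide at its merged extent and stood at percentile 39.2, 26.9 and 40.8 in the iNSC lists. Its strand was thus not that of the lncRNA.

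Gm32925, at chr16:87737943-87799641 on the plus strand, was the iNSC-only gene whose peak lay on the lncRNA's own strand. Its region, chr16:87784075-87784541, was 50729 bases from the nearest protein-coding gene, Bach1. The peaks covered 400, 467 and 356 bases in the iNSC lists, at percentile 29.7, 25.1 and 23.8, and no SSC list held one. All 3 ranked in the lower part of their list.

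The third iNSC-only gene, A530040E14Rik at chr1:85106093-85114038, had its peak at chr1:85112267-85112609 on the opposite strand and over the pseudogene Gm35498. It stood at percentile 36.3, 35.7 and 3.87 in the iNSC lists. Without peaks over pseudogenes 2 iNSC-only genes were left, and with a peak required on the lncRNA's own strand 1, Gm32925. In the upper 50% of each list by score none of the 3 was called, and at equal list length Ino80dos and Gm32925 were.

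A further iNSC-high lncRNA signal was at a locus that the iNSC-only rule did not pick, and it is named after its values were seen. A930004D18Rik, Gm17762 and Gm33085 overlap there, and 1 peak on the minus strand, within chr2:18025189-18028238, covered 3050, 3049 and 3050 bases of A930004D18Rik in the iNSC lists at the capped score of 3100 in each. In SSC lists the covered bases were 249, 0 and 549, and the best peak stood at percentile 35.4 in replicate 1 and 31.4 in replicate 3, against 99.6, 99.5 and 99.6 in the iNSC lists. The iNSC and SSC values did not overlap in length or rank. Since the locus was picked with these values known, that is a description alone. The share of lncRNA genes or of all features that separate in this way was not counted. The nearest protein-coding gene, Skida1, was 15849 bases away.

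D430020J02Rik and C030037D09Rik are also named after their values were seen, so the same limit holds for any lack of overlap in them. D430020J02Rik, on the minus strand 708 bases from the condensin II subunit gene Ncapg2, had 1277, 1319 and 1346 bases under its peak in iNSC lists and 503, 0 and 1968 in SSC lists. Its score percentile was 53.4, 73.9 and 74.9 in iNSC lists, against 4.31 and 16.2 in SSC replicates 1 and 3, so the ranks did not overlap while the lengths did. C030037D09Rik, at chr11:88718643-88728572 and 337 bases from Msi2, which encodes an RNA-binding protein of stem and progenitor cells, had 2973, 3222 and 3222 bases under peaks in iNSC lists and 375, 0 and 394 in SSC lists. Its lengths did not overlap, but its best percentile did, at 57.1, 47.4 and 56.8 in iNSC lists against 51.9 and 64.2 in SSC replicates 1 and 3. The second of its regions started downstream of the one whose promoter window is printed above.

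On the SSC side the best-ranked lncRNA of the call was 4933427D06Rik, at chr6:89096110-89110039 on the plus strand and 183870 bases or more from the nearest protein-coding gene, Tpra1. It had 0 peaks in each iNSC list, against 3, 4 and 3 in those of SSCs. Its last region, chr6:89107668-89109980, lay at the 3′ end of the gene and was held by all 3 SSC lists with scores of 3100, 2851.88 and 3100, at percentile 99.8, 91.9 and 99.8. The other 4 regions were 62 to 125 bases wide, 1 of them at the annotated first base, and each was in 1 or 2 lists. In total the peaks covered 2262, 2568 and 2360 bases, so the 3 libraries were close to one another.

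Gm1141, at chrX:71932438-71940871 on the plus strand, had the most regions of any lncRNA gene, 6. It had 4, 2 and 5 peaks in SSC lists and none in iNSC lists, and 2 of the regions were in all 3 SSC lists. The one at chrX:71936108-71936520 scored 109.47, 222.10 and 327.82, and the one at chrX:71938111-71938260 scored 177.38, 72.40 and 122.36. The gene's best percentile was 53.8, 51.1 and 68.4, in the middle of each list.

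The other SSC-only gene on its own strand with a region in all 3 lists and no pseudogene was 1700048O20Rik at chr9:121937275-121947016. Its region chr9:121945611-121946033 scored 256.87, 123.77 and 177.88 in the SSC lists, and the gene's best percentile was 64.8, 33.4 and 51.6. The peaks covered 1095, 423 and 314 bases, so SSC replicate 1 held more than the other two.

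**Figure D4:**
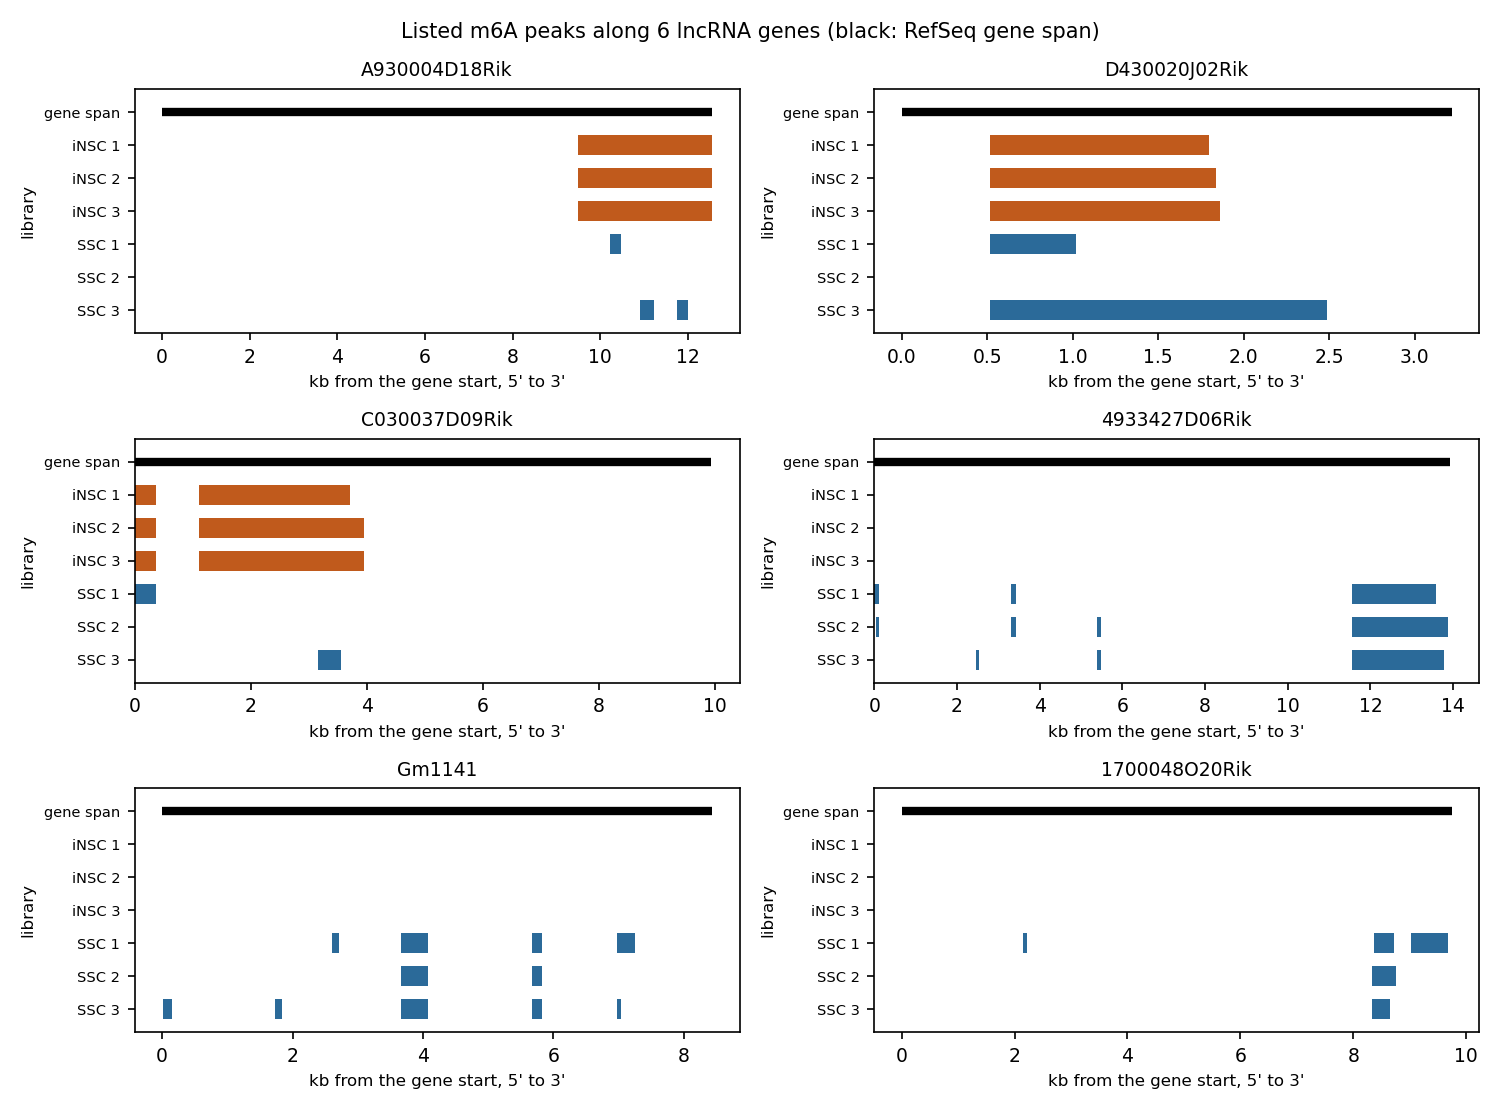
Listed peaks (coloured bars) of the 3 iNSC and 3 SSC libraries along 6 lncRNA genes, in kilobases from the gene's start and 5′ to 3′, above them the gene span in black. A930004D18Rik carries 1 peak of 3049 to 3050 bases in each iNSC library and short pieces in 2 SSC libraries, and 4933427D06Rik, Gm1141 and 1700048O20Rik carry peaks in the 3 SSC libraries and none in the iNSC libraries.

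A further 3 SSC-only genes owed the call to peaks over pseudogenes. Gm40271 had 1 peak of 384 bases in each SSC list over Rpl36-ps3, at chr12:12911986-12912369, with scores of 1582.20, 1578.65 and 1792.39. Gm41603 had 1 peak in each over Rpl21-ps6, at chr17:55915403-55915809, at percentile 95.1, 72.0 and 93.2. Both pseudogenes are copies of ribosomal protein genes, so reads of the parent messenger RNA and of the copy may not be told apart, and the values are uncertain. 4930578G10Rik had 5 regions, 4 of them over the pseudogenes Gm21158 and Gm12394, and none was in all 3 lists.

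The remaining SSC-only genes had a peak in each list but not at the same place. 4930470P17Rik had 1 peak in each SSC list, of 46, 414 and 281 bases, in 3 different regions. Brip1os, which lies opposite the DNA helicase gene Brip1, had 2249, 2175 and 23 bases under peaks in the SSC lists, at percentile 81.0, 40.7 and 4.10, so its call rests on a peak of 23 bases in SSC replicate 3. Leaving out a library can only add genes to either call: the SSC-only count was 13, 15 and 14 without SSC replicates 1, 2 and 3, and the iNSC-only count was 5 without iNSC replicate 1 and 6 without SSC replicate 3. In the upper 50% of each list by score 4 of the 8 SSC-only genes were called, 4933427D06Rik, Gm1141, Gm40271 and Gm41603, and at equal list length these and 1700048O20Rik.

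BC002059, Gm14403, Gm19426 and 1500011B03Rik were the 4 lncRNA genes with a peak in all 6 lists. BC002059 had 1 region, chr17:16972910-16973770, with the same edges and 861 bases in each list. It scored 2426.01, 2966.96 and 3100 in iNSC lists and 1386.66, 688.70 and 1376.93 in SSC lists, and stood at percentile 82.3, 81.8 and 99.6 in iNSC lists and 91.3, 75.3 and 89.9 in SSC lists. Scores of different lists are not on 1 scale, and by rank the 2 cell types overlapped.

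Gm14403 had the widest region, 3858 bases at chr2:177508454-177512311 at the 3′ end of the gene. Its peaks covered 3250, 2981 and 2927 bases in iNSC lists and 1340, 3280 and 1092 in SSC lists, where SSC replicate 2 held 3 peaks, so the lengths overlapped. Gm19426 had 1 region of 194 bases in every list, at chr2:84743462-84743655. It stood at percentile 71.8, 44.8 and 52.7 in iNSC lists and 77.5, 86.9 and 77.2 in SSC lists, so the within-list ranks in SSCs were higher with no overlap. Its scores did overlap, at 1194.98, 343.24 and 445.83 in iNSC lists and 452.71, 1633.91 and 510.45 in SSC lists. A percentile depends on the other peaks of its list. The score of 445.83 stood at 52.7 in iNSC replicate 3, and that of 452.71 at 77.5 in SSC replicate 1.

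1500011B03Rik, at chr5:114808196-114813976 on the minus strand, had 3 regions, 1 at its annotated start, 1 at chr5:114812793-114813205 toward that start, and 1 at its 3′ end. Its peaks covered 1136, 1549 and 1277 bases in iNSC lists and 413, 1569 and 1549 in SSC lists. The 3′ region, chr5:114808196-114809331, ended on the annotated edge of the gene and was held by all iNSC lists at percentile 58.3, 53.3 and 57.1, and by SSC replicates 2 and 3 at 32.9 and 44.4. The region ranked higher in iNSC lists.

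A further 3 lncRNA genes had a peak in every iNSC list and in 2 SSC lists, and these are named after their values were seen. Gm51480, on chromosome 7, had 3121, 3281 and 3259 bases under its peak in iNSC lists and 3117, 3281 and 0 in SSC lists, on the strand opposite the lncRNA. It stood at percentile 99.6, 99.5 and 99.6 in iNSC lists, against 96.1 and 30.3 in SSC replicates 1 and 2. The iNSC peaks were tied at the capped score, so their values against 96.1 do not show a higher rank. 1700030F04Rik, on chromosome 6, had a region of 995 bases, also on the opposite strand, at percentile 99.6, 74.7 and 99.8 in iNSC lists and 99.7 and 94.9 in SSC replicates 2 and 3. LOC108168645, at chrY:90836782-90843932, stood at percentile 55.7, 78.1 and 59.4 in iNSC lists, against 61.0 and 10.4 in SSC replicates 2 and 3. It lies toward the distal end of the Y chromosome where sequence is shared with X, so its placement is uncertain.

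Most of the lncRNA genes with a peak have no functional name. Symbols with a Gm number made up 56 of the 126 genes with 126 peaks, and Riken clone names 53 genes with 127 peaks. Genes named as the opposite strand of a coding gene were 4, with 12 peaks. How common such names are among all lncRNA genes was not counted. Separately, 113 well-studied lncRNAs in 9 lists were looked up. Among them were nuclear architecture RNAs, X inactivation RNAs, imprinted RNAs, small nucleolar and microRNA hosts, neural, germline and Hox antisense RNAs. Of the 113, 3 had an lncRNA peak, H19, Lncpint and Snhg11, beside 126 of all 12731 lncRNA genes. Each of the 3 was in SSC lists alone, as were 91 of the 126 genes with a peak, and none was called.

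By list, the counts were 1 of 12 imprinted RNAs (H19), 1 of 21 snoRNA hosts and 1 of 23 neural RNAs (both Snhg11), and 1 of 21 germline and pluripotency RNAs and 1 of 14 growth and p53 RNAs (both Lncpint). The nuclear architecture (0 of 4), X inactivation (0 of 3), microRNA host (0 of 16) and Hox and developmental antisense lists (0 of 24) had none. H19, from which miR-675 is processed, was listed only among the imprinted RNAs, so the microRNA host count leaves it out. The submitters named the lists as mRNA peaks, and how that subset was made is not given in the sources used here. So the lack of Malat1, Neat1 or Miat peaks says nothing of their methylation in these cells. Of the 9974 lncRNA genes not wholly inside a coding span, 1.26% had a peak, against 62.8% of 21900 protein-coding genes.

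H19, at chr7:142575530-142578146, had 1 peak, in SSC replicate 3, that covered 2615 of its bases with a score of 1048.57, at percentile 87.1. It was not in the other 2 SSC lists or in any iNSC list. Lncpint, an RNA that p53 induces, had 2, 1 and 0 peaks in SSC lists, on its own strand at chr6:31166349-31166638 and chr6:31181022-31181149. Snhg11, a snoRNA host gene expressed in neurons, had 1, 2 and 0 peaks in SSC lists, the stronger at chr2:158384988-158386145 with scores of 713.25 in replicate 1 and 167.97 in replicate 2. None of the 3 was held by all SSC lists.

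A further 12 of the listed RNAs had peaks only where their span runs over a protein-coding gene, so those peaks were not counted as lncRNA peaks. Kcnq1ot1, the imprinted antisense RNA inside Kcnq1, had 79 such peaks over the 6 lists, Snhg14 20, Hoxb5os 13 and Hoxb3os 7. Airn and Sox2ot had 3 each. Which of the overlapping genes such a peak belongs to was not resolved. Over all lncRNA genes, 4685 peaks overlapped 1252 spans when overlap with coding genes was ignored, and 277 of those peaks were outside coding spans.

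For most regions the strand of the peak could be set against that of the lncRNA. On the lncRNA's strand lay 96 regions and on the opposite strand 28, while for 29 the lncRNA's strand was not in the table. Of the opposite-strand regions, 12 (42.9%) lay within 1000 bases of a protein-coding gene, and 10 of these were on that coding gene's strand, none on its other strand and 2 next to a gene of unknown strand. Of the own-strand regions 13 (13.5%) lay as near, none on the coding gene's strand, 11 on its other strand and 2 unknown. Whether the opposite-strand peaks belong to transcripts of those coding genes was not tested.

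**Figure D5:**
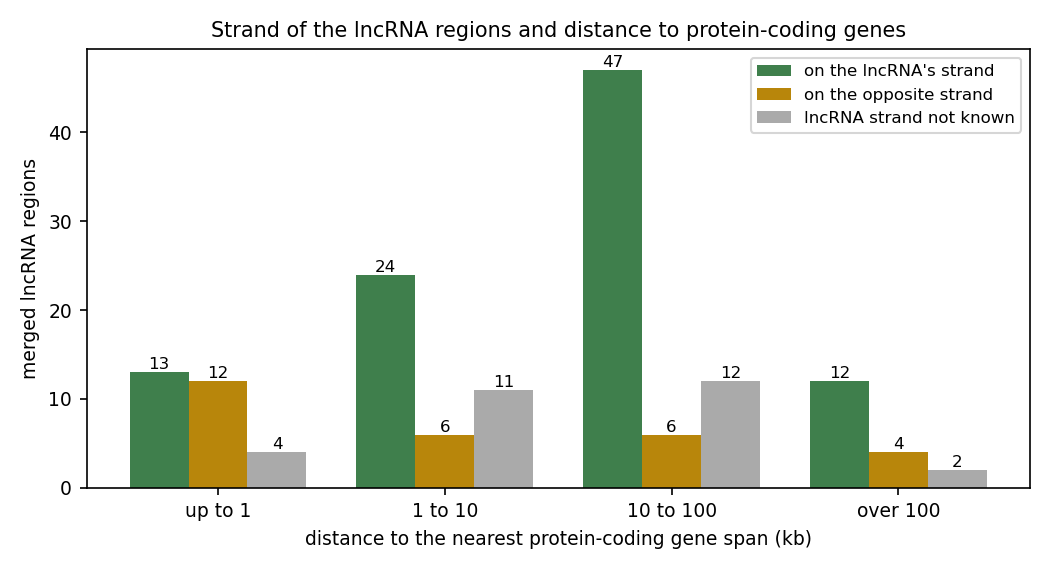
Number of merged lncRNA regions by distance to the nearest protein-coding gene span in kilobases, split by the strand of the peak relative to the lncRNA. Own-strand regions are most often 10 to 100 kb away (47 of 96), and opposite-strand regions most often within 1 kb (12 of 28).

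Regions found in iNSC lists alone numbered 12, of which 8 were on the lncRNA's strand and 4 opposite. Those in SSC lists alone numbered 116, with 71 on the strand, 20 opposite and 25 unknown. Those in lists of both cell types numbered 25, with 17 on the strand. Median width was 528 bases for iNSC regions, 258 for SSC regions and 726 for shared ones. Within 1000 bases of a coding gene lay 4 iNSC, 21 SSC and 4 shared regions, and over a pseudogene 3, 12 and 2.

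Along the gene, own-strand lncRNA peaks were most often in the part at the 3′ end, by less in SSC lists. With each span cut into 3 equal parts, their centre lay in the part at the 3′ end for 61.5%, 63.2% and 63.6% of 13, 19 and 22 peaks in iNSC lists and for 45.1%, 51.5% and 41.3% of 51, 33 and 46 peaks in SSC lists. The middle part held 7.69%, 5.26% and 18.2% in iNSC lists and 21.6%, 24.2% and 21.7% in SSC lists, and the part at the start 30.8%, 31.6% and 18.2% in iNSC lists and 33.3%, 24.2% and 37.0% in SSC lists. For protein-coding genes the part at the 3′ end held 52.9%, 55.7% and 51.1% in iNSC lists and 51.3%, 46.1% and 46.6% in SSC lists. The lncRNA share there was above the coding share in 3 of 3 iNSC lists and in SSC replicate 2, and below it in SSC replicates 1 and 3. These shares were measured after the data were seen and were not tested.

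Regions ranged from 5 to 3858 bases, with a median of 290 bases; 12 were under 50 bases, shorter than a fragment of the library, and 21 were 1000 bases or longer. Of 227 distinct lncRNA peak entries, 25 (11.0%) had the same edges in 2 or more lists, against 22.7% of 74799 entries in protein-coding genes. Regions were spread over the genome, with 16 on chromosome 11, 13 each on chromosomes 2 and 17 and 11 on chromosome 14.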

How the data were processed

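Each m6A immunoprecipitation library had 1 deposited list of stranded peak intervals. The score of a peak was made by the authors, with no unit stated. It runs from 50 to a ceiling of about 3100; it was used only as a percentile within its own list or as the share at the ceiling. Per the submitters' processing notes, reads were handled with cutadapt 1.9.3 and HISAT2 2.0.4 on mm9; the peak caller is not given in the sources used here. Start positions count from 0 and were raised by 1. Between 4.90% and 12.0% of peaks began or ended on a coding gene edge of GRCm38.p6 as deposited, and 0.00807% to 0.0187% after a shift of 10000 bases, so GRCm38 was used. The gene table gives spans without exons; strand came from the RefSeq promoter table, for 101 of the 126 lncRNA genes. A peak over several lncRNA genes, as 15 were, was counted for each.

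Groups came from titles. Library means were compared by exact permutation tests and lncRNA with coding peaks of a list by exact sign-flip tests, with Benjamini-Hochberg adjustment, in Python 3.11.15 with pandas 2.3.3, numpy 2.4.6 and matplotlib 3.10.9, tested on simulated data. The contrasts of lncRNA with coding peaks and the alternative without pseudogenes were added after the data were seen. Whether replicates were separate cultures is not stated, so the p-values cover the spread among 6 libraries, which may be technical. Depth is unknown, so no interval was given. Named genes were those of the 9 lists with a peak, the 10 best-ranked of each call and those with 3 or more regions. The lncRNA rule, lists and tests were chosen with earlier results of these data known. Alternatives were a score cut, equal list length, width, strand, overlap, number of lists and leaving out a library.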

Additional observations from a re-analysis of the deposited data

How the results depend on the processing

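No difference between the cell types or between lncRNA and coding peaks changed sign under any alternative run, and the 5 per-library measures could not pass 0.05 under any. The balance of the calls did move. Genes went from 3 iNSC-only against 8 SSC-only to 7 against 5 at equal list length. In the upper 50% of each list by score they were 5 against 4. Both of these iNSC-only counts include A930004D18Rik, Gm17762 and Gm33085, which were called on the same peak. By region, 3 against 6 became 5 against 4 at equal length and 3 against 3 in the upper 50% by score. Leaving out 1 library at a time gave differences of −44.8 to −31.8 peaks, −0.101 to −0.0773 percentage points of the list, −37.3 to −23.8 genes, 274 to 380 bases of width and 8.79 to 12.8 percentage points at the capped score. In the upper 50% by score these were −9.00 peaks, −0.0168 points, −5.00 genes, 764 bases and 22.8 points; at equal length −4.33 peaks, −0.0311 points and −1.0 genes; on the lncRNA's strand −17.7 genes and 606 bases; and where only a coding gene on the peak's strand barred a peak −0.0469 points, 646 bases and 5.64 points. The 3 iNSC-only genes became 5 in the upper 50% of each list by score (0 of them the same genes), 7 at equal list length (2 the same), 5 where only a coding gene on the peak's strand barred it (1 the same), 1 with peaks on the lncRNA's strand alone, 7 with at least 2 of 3 lists, and 4 to 6 without 1 library. The 8 SSC-only genes became 4 in the upper 50% by score, 5 at equal length, 5 with peaks on the lncRNA's strand, 5 without peaks over pseudogenes, 26 with at least 2 of 3 lists, and 8 to 15 without 1 library. The 3 iNSC-only regions became 5 at equal length, 5 where only a coding gene on the peak's strand barred it, 1 on the lncRNA's strand, 7 with at least 2 lists and 4 to 7 without 1 library, and the 6 SSC-only regions became 3 in the upper 50% by score, 23 with at least 2 lists and 6 to 13 without 1 library. The score percentile contrast of −9.24 became −7.25 where only a coding gene on the peak's strand barred it (exact permutation p = 0.094), −7.32 on the lncRNA's strand (p = 0.094), −8.67 without pseudogenes (p = 0.062), −3.36 in the upper 50% by score (p = 0.031) and −10.8 to −8.20 without 1 library. The width contrast of 189 bases became 348 where only a coding gene on the peak's strand barred it, 328 on the lncRNA's strand, 272 in the upper 50% by score and 154 to 213 without 1 library. With 5 libraries the smallest exact permutation p is 0.062, so those fits cannot pass. The causes were not tested, apart from that smaller number of libraries. Same-numbered libraries of the 2 cell types had r of 0.0, −0.025 and 0.06 over lncRNA genes, and other-numbered pairs ran from −0.078 to 0.079. Of these 126 genes 70 had a peak in 1 list alone, so the values cannot show whether same-numbered libraries shared a preparation. With the replicate number as a block the differences stayed −37.0 peaks, −0.0880 percentage points, −29.3 genes, 345 bases and 10.4 percentage points. Each had an exact permutation p of 0.25, the smallest that 3 pairs allow.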
